A study of Mus musculus with 2 samples.

Results

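Far intergenic peaks were the regions of a GFP ChIP-seq peak list that lay in wide stretches of the mouse genome without protein-coding genes. A peak was a member when its summit, the position of highest ChIP coverage, was on chromosomes 1 to 19, inside no protein-coding gene span, and more than 50000 bp from the nearest end of any protein-coding gene in a GRCm38 gene table. The rule used position only, and 453 of the 2958 peaks on these chromosomes met it, of 2977 peaks in the whole list. Members are described by their signal and their flanking protein-coding genes. Where only a gene of a list is named, the other flank can lie nearer to the peak.

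The study asked which genes Pax7 targets in muscle stem cells. One library came from ChIP with an antibody against GFP (Thermo Fisher, A-11122) and the other from input DNA. Both came from untreated muscle stem cells that were isolated by FACS from C57BL/6 mice with the genotype Pax7-YFP KI, in which the yellow fluorescent protein, a GFP variant that GFP antibodies also bind, is knocked in at Pax7. The labels do not say whether the YFP is fused to the PAX7 protein. ChIP from cells without the knock-in was not analysed here, and the number of animals per library is not given in the sources used here. With 1 ChIP library of 10622111 filtered tags and 1 input library of 20429667, no value had a replicate, nothing was tested between libraries, and all intervals cover counting error only.

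PAX7, a transcription factor with a paired domain and a homeodomain, is expressed by the stem cells of adult skeletal muscle and is required to maintain them. Factors of this kind bind both promoters and distal elements, and a distal element can act on a gene across long stretches of DNA, skipping nearer genes. The gene next to a distal peak is therefore a neighbour by position and not a known target.

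By the distance rule no far peak could lie at a protein-coding start site, but 7 overlapped a promoter window of a long noncoding RNA (lncRNA) gene, and 2 of these had their summit inside one. Some of these windows are shown because they are stretches of far peaks whose sequence could be read here. They run from 250 bases before to 50 bases after a gene's annotated start, in RefSeq annotation of GRCm38.p6, and are printed on the strand of the lncRNA with the bases covered by the peak in capitals. Gm34516 (chr19:25924263-25924562, plus strand) was covered whole, Gm36199 (chr17:29434586-29434885, plus strand) over 203 bases, Gm30604 (chr5:118380869-118381168, minus strand) over 200 bases, and Gm33253 (chr15:97182762-97183061, plus strand) over 65 bases.
Gm34516: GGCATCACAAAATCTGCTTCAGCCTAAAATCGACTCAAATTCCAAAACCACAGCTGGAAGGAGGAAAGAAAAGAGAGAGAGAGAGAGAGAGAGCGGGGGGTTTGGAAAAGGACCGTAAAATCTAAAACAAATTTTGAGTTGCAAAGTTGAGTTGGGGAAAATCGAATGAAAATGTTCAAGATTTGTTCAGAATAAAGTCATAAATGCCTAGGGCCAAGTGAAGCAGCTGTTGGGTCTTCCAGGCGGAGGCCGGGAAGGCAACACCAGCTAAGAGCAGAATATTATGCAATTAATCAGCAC
Gm36199: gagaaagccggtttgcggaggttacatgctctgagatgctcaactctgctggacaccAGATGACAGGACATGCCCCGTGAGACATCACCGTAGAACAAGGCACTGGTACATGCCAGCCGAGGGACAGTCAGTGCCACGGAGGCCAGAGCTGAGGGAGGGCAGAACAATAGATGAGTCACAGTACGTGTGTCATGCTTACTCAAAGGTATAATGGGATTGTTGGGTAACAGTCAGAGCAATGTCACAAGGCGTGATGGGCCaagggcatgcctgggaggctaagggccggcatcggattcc
Gm30604: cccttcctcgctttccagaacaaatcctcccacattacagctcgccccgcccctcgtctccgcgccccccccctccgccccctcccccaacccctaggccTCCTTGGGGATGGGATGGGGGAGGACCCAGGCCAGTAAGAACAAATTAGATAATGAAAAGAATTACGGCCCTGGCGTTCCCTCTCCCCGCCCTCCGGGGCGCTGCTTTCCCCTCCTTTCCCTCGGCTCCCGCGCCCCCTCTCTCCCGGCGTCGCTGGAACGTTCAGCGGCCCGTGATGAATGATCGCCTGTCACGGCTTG
Gm33253: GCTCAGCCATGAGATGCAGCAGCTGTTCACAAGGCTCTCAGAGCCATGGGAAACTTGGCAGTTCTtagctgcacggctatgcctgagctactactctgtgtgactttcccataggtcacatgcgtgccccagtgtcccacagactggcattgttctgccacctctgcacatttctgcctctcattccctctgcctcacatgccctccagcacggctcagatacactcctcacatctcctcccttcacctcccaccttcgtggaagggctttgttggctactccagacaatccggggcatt

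The Gm34516 peak had a fold enrichment of 7.99 (95% Poisson interval 4.84 to 12.5) and lay between Dmrt2, a transcription factor gene with a DM domain at 245.4 kb, and Smarca2, which encodes an ATPase of the SWI/SNF chromatin remodelling complex, at 680.7 kb. The Gm36199 peak had a fold of 5.39 (2.84 to 9.51) and lay 55.2 kb from Fgd2, an exchange factor for a small GTPase, and 56.1 kb from Pim1, a serine/threonine kinase gene. The stronger peaks at Gm30604 (14.2-fold, 9.51 to 20.4) and Gm33253 (11.1-fold, 7.08 to 16.7) overlapped the window with their flank, and their summits lay 16 bp and 77 bp outside it. The windows were searched for TAATTA, a homeodomain core word, and CAGCTG, an E-box word of myogenic factors, both of which read alike on both strands. CAGCTG occurred 2 times in the covered part of Gm34516 and 1 time in that of Gm33253, and TAATTA occurred in none of the overlapped windows. Outside the covered part, CAGCTG also occurred 1 time each in the overlapped windows of Gm33742 and Gm46165. Of all windows of lncRNA genes, each searched whole, 17.7% held CAGCTG and 6.68% held TAATTA. A summit lay inside an lncRNA promoter window for 2 of 426 far peaks on the chromosomes for which windows were at hand (0.469%, Wilson 95% interval 0.129 to 1.70%), against 9 of 352 intergenic peaks 10 to 50 kb from a gene (2.56%, 1.35 to 4.79%) and 3 of 202 at 1 to 10 kb (1.49%, 0.506 to 4.27%). These intervals overlapped, and the number of lncRNA starts in each territory was not taken into account.

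Small RNA genes were also among the nearest annotated features of some far peaks. The mature miRNAs closest to a summit are shown from RefSeq (GRCm38.p6) with their seed, bases 2 to 8, in capitals. miR-12196-3p (chr4:150797898-150797919, minus strand) lay 823 bp from a 6.64-fold peak between Errfi1, a feedback inhibitor of the EGF receptor, and Slc45a1. The other 2 genes lay in the gap between Rtl1 and Dio3, where Mir3072 was 1959 bp and Mir882 3968 bp from a peak. Their mature forms, all on the plus strand, are miR-3072-5p (chr12:109747893-109747914), miR-3072-3p (chr12:109747928-109747949) and miR-882 (chr12:109682207-109682228).
mmu-miR-12196-3p: uCACAGGUgagcuagaaaguau
mmu-miR-3072-5p: aGGGACCCcgagggagggcagg
mmu-miR-3072-3p: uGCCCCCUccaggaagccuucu
mmu-miR-882: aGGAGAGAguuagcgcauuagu

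The 4 mature sequences had 4 different seeds.

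Far intergenic territory made up 34.9% of the 2402 Mb between the first and last annotated genes of chromosomes 1 to 19, and the 453 far peaks made up 15.3% of the peaks there (14.1 to 16.7%). That is 0.540 peaks per Mb (95% Poisson interval 0.492 to 0.592), against 1.05 (0.942 to 1.16) in intergenic territory 10 to 50 kb from a gene and 1.03 (0.893 to 1.18) at 1 to 10 kb. Inside genes the density was 1.09 (1.01 to 1.17) beyond 10 kb of a gene end and 1.28 (1.14 to 1.44) at 1 to 10 kb, and within 1 kb of a gene end it was 11.6 (10.8 to 12.4). The far density was the lowest of the 6 classes and its interval overlapped no other. Assembly gaps and sequence to which short tags cannot be mapped were not subtracted from any territory.

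**Figure D1:**
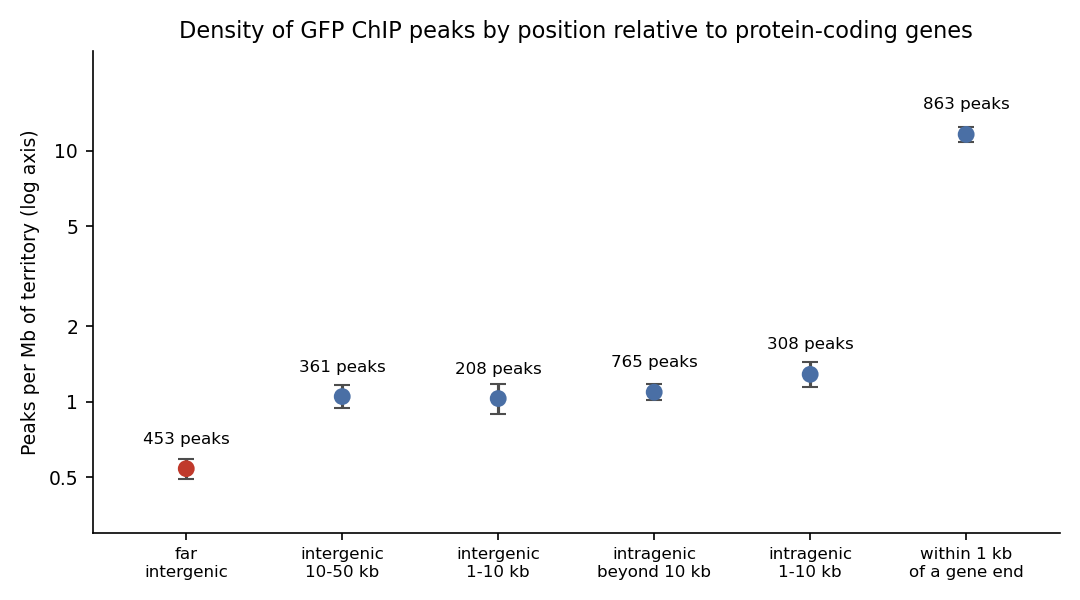
Peaks per Mb of territory, on a log axis, for the far intergenic class (red, left) and 5 other position classes (blue). Points are densities and bars their 95% Poisson intervals, and the far class at 0.540 lies below all others while the gene-end class reaches 11.6.

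Within the far territory, density was lower the farther a summit lay from genes. It was 0.846 peaks per Mb (0.717 to 0.99) at 50 to 100 kb from a gene, with 154 peaks, and 0.741 (0.626 to 0.871) at 100 to 200 kb, with 147 peaks. It was 0.491 (0.409 to 0.585) at 200 to 500 kb, with 126 peaks, and 0.129 (0.0843 to 0.189) beyond 500 kb, with 26 peaks. The intervals of the first 2 distance ranges overlapped, and those of the last 2 lay below both. The median distance to the nearer gene was 135.1 kb (order-statistic 95% interval 123.7 to 151.1 kb) with quartiles of 82.7 and 259.1 kb, and the median distance to the farther gene was 365.1 kb (328.6 to 417.8 kb) over the 451 peaks with a gene on both sides. The nearest of the members lay 51104 bp and the farthest 1700.1 kb from a gene.

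Median signal values of the far peaks lay close to those of the other peaks of the list. Their median fold enrichment over the input was 7.35 (7.08 to 7.59), and the medians of the other 5 classes ran between 7.24 and 7.45. Their median pileup, which counts ChIP fragments at the summit, was 15, and their median −log10 q was 8.40, as it was over all other peaks. A fold of 10 or more was reached by 75 far peaks (16.6%, 13.4 to 20.3%) and by 353 of 2505 other peaks (14.1%, 12.8 to 15.5%), with overlapping intervals. Far peaks were somewhat wider, with a median of 248 bp (237 to 259 bp) against 227 bp (224 to 231 bp) for all other peaks, and 241 bp (232 to 255 bp) without those of raised background. The intervals of these medians did not overlap, but that of peaks inside genes beyond 10 kb of a gene end, 235 bp (226 to 242 bp), overlapped that of the far peaks.

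The median fold was similar at all distances up to 500 kb. It was 7.25 (7.03 to 7.59) at 50 to 100 kb, 7.08 (6.95 to 7.59) at 100 to 200 kb and 7.59 (7.08 to 8.09) at 200 to 500 kb. Beyond 500 kb it was 6.22 (5.47 to 8.82), an interval that overlapped the other 3, and 4 of these 26 peaks had a local background of 10 or more fragments.

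**Figure D2:**
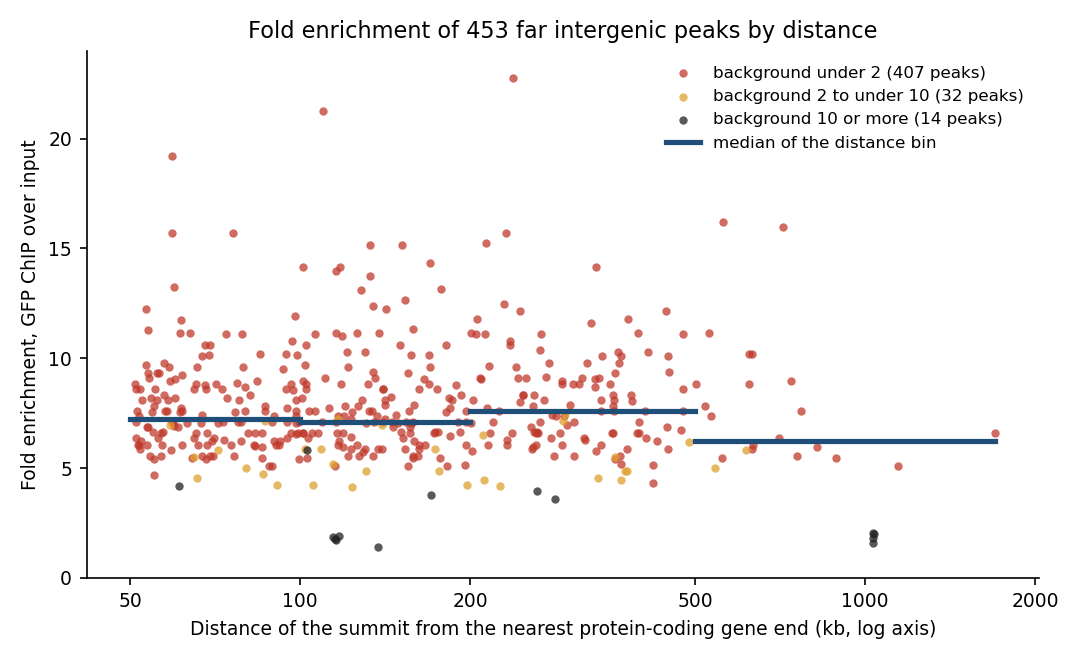
Fold enrichment of each far intergenic peak against its distance from the nearest protein-coding gene end (kb, log axis), coloured by local background, with the median of each distance range as a blue line. The medians lie between 6.22 and 7.59, and the 14 peaks with a background of 10 or more lie at folds of 1.42 to 5.81.

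The local background, the scaled input coverage that each peak was called against, was unevenly spread. It stood at its floor of 0.977 fragments, the level set by the genome-wide tag density, for 36.4% of far peaks (32.1 to 41.0%) and for 45.4% of the other peaks (43.5 to 47.4%). Among the others the share was 53.8% (50.4 to 57.1%) within 1 kb of a gene end, and in the remaining 4 classes it was 39.9 to 42.9%, with intervals that overlapped that of the far peaks. The background was 2 or more for 46 far peaks (10.2%, 7.70 to 13.3%) and for 110 other peaks (4.39%, 3.66 to 5.27%), although at 1 to 10 kb from a gene the intergenic share of 7.21% (4.42 to 11.6%) overlapped the far one. The 46 peaks had a median fold of 4.80 and none exceeded 7.47, while the remaining 407 had a median fold of 7.59. All 11 far peaks of at least 15-fold had a background under 2.

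A background of 10 or more marked 14 far peaks (3.09%, 1.85 to 5.12%) and 9 of the 2505 others (0.359%, 0.189 to 0.681%). Of the others, 3 were among the 361 intergenic peaks 10 to 50 kb from a gene (0.831%, 0.283 to 2.41%), an interval that overlapped the far one. The ChIP pileups of the 14 far peaks were among the highest, 44 to 337 fragments over backgrounds of 10.4 to 178.9, and their folds were low, 1.42 to 5.81. On chromosome 2, between the synaptic adhesion gene Lrrc4c and Iftap, 4 peaks within 4.09 kb had pileups of 162 to 302 and folds of 1.58 to 2.06. On chromosome 14, between Gm41099 and Gm2244, 4 peaks within 2.78 kb had pileups of 111 to 337 and folds of 1.70 to 1.91. The annotated ribosomal RNA pseudogene Rn18s-rs5 on chromosome 17 held the widest far peak, 5922 bp, with a pileup of 236 over a background of 39.8 and a fold of 5.81 (5.09 to 6.6). Near the first annotated gene of chromosomes 12 and 6 were the 2 members with a gene on 1 side only, at Rab10 (218 over 153.4, 1.42-fold, 1.24 to 1.62) and Samd9l (83 over 21.3, 3.76-fold, 3.01 to 4.66). At these peaks the coverage was high in the ChIP and in the input alike.

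**Figure D3:**
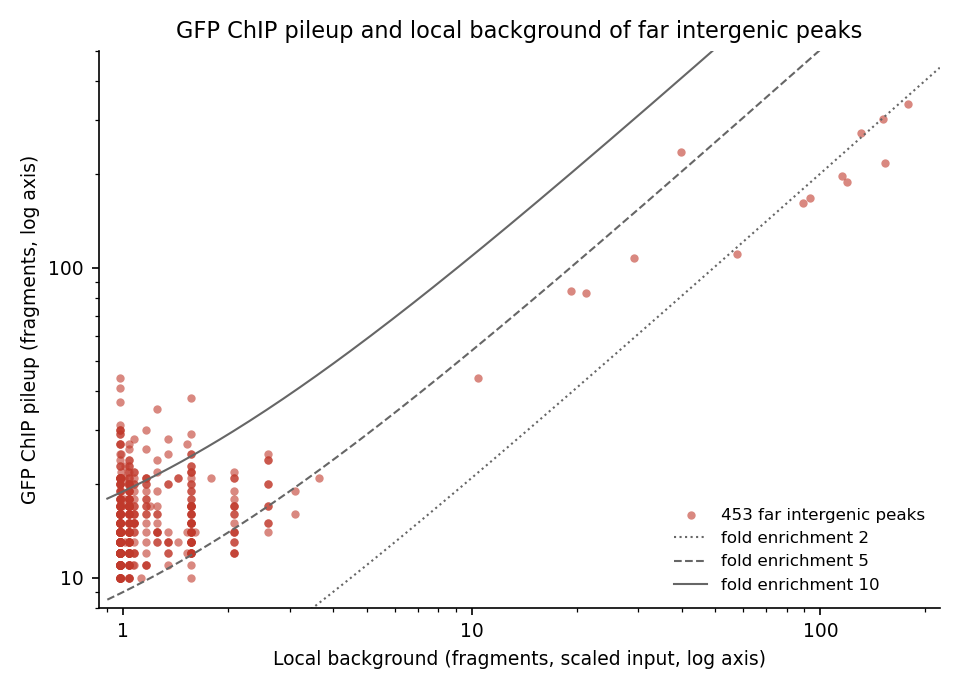
GFP ChIP pileup against local background, both in fragments on log axes, for the 453 far peaks, with lines of equal fold enrichment at 2, 5 and 10. Most points stand at backgrounds near 1 with pileups of 10 to 44, and the 14 points with backgrounds of 10 or more reach pileups of 337 at folds of 1.42 to 5.81.

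The strongest far peak lay on chromosome 7 at 70822226 to 70822906, with 44 ChIP fragments over a background of 0.977 and a fold of 22.8 (16.7 to 30.4). Its flanks were the predicted gene Gm44812 at 237.8 kb and Mctp2, which encodes a calcium-binding transmembrane protein, at 1255 kb. The next was on chromosome 4 at 58663728 to 58664022 with 41 fragments over 0.977 (21.2-fold, 15.4 to 28.6). It lay 109.9 kb from Lpar1, a receptor gene for lysophosphatidic acid, and 120.9 kb from the olfactory receptor gene Olfr267. The third was on chromosome 9 at 35362140 to 35362592 with 37 fragments over 0.977 (19.2-fold, 13.7 to 26.3). Its nearer flank at 59.2 kb was Cdon, a cell surface receptor gene that promotes myogenic differentiation and also serves Hedgehog signalling, and its other flank at 86.3 kb was Rpusd4, a pseudouridine synthase gene. The intervals of these 3 folds overlap, so their order is not fixed by the counts.

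The next 8 peaks ranged between 15.2-fold and 16.2-fold. A peak of 16.2-fold (11.2 to 22.8) lay between Galr1, a galanin receptor gene, and Sall3, a zinc finger regulator gene, at 561.1 and 844.4 kb. A peak of 16-fold (11.3 to 22.1) lay 716.4 kb from Celf2, an RNA-binding protein gene, and 1744 kb from Gata3, a zinc finger transcription factor gene. Peaks of 15.7-fold (10.7 to 22.2), each with 30 fragments, lay between Adcy2, an adenylyl cyclase gene, and the poly(A) polymerase gene Tent4a, between Fam78b and the flavin monooxygenase gene Fmo9, and between the helicase gene Dhx40 and Ypel2. A peak with 38 fragments over a background of 1.56 (15.2-fold, 10.9 to 20.8) lay 213.4 kb from Tet2, which encodes an enzyme that oxidises 5-methylcytosine, and 477.6 kb from Cxxc4. The other 2, both 15.2-fold (10.3 to 21.6), lay between the focal adhesion gene Tns1 and the sperm chromatin gene Tnp1 and between the stathmin gene Stmn4 and the adrenergic receptor gene Adra1a. Among the 15 strongest, the nearer flank was 59.2 to 716.4 kb away, so high folds occurred both close to the distance limit and far beyond it.

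Far peaks often shared a gap, the stretch between 2 neighbouring protein-coding genes. The 453 peaks fell in 278 stretches, 276 of them between 2 genes and 2 at chromosome ends with a gene on 1 side only. Of the 278, 188 held 1 peak, 90 held more, and 45 held 3 or more. Peaks with another member in the same stretch numbered 265 (58.5%). Gaps over 100 kb, the narrowest that can hold a member, numbered 2476, and 276 of them held one (11.1%, 9.97 to 12.4%). The gaps with a peak had a median width of 440.0 kb (365.8 to 538.0 kb) and those without 212.1 kb. A wider gap leaves more sequence over 50 kb from both ends, so this difference follows in part from the rule. Between consecutive members of a gap the median spacing was 41.3 kb over 175 spacings, the shortest 305 bp, with 43 spacings of at most 10 kb and 16 of at most 1 kb. Close spacing was not particular to far peaks. Another peak of the list lay within 10 kb for 17.2% of far peaks (14.0 to 21.0%). The share was 18.6% (14.9 to 22.9%) for intergenic peaks 10 to 50 kb from a gene and 14.1% (12.8 to 15.6%) for all other peaks.

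The gap with the most members, 10, lay between Myc, a transcription factor gene of cell growth and proliferation, and the gasdermin gene Gsdmc on chromosome 15, and was 1.79 Mb wide. On the Myc side, 6 of its peaks lay 89.3 to 472.3 kb from Myc, and on the other side 4 lay 375.2 to 757.9 kb from Gsdmc. Their folds were modest, 4.85 to 9.10 with a median of 6.08, and 2 had a background of 2 or more. The 2 peaks nearest to Myc, of 5.08-fold (2.81 to 8.58) and 6.27-fold (3.47 to 10.6), lay inside Pvt1, a lncRNA gene next to Myc. An eleventh peak flanked by Myc (6.58-fold, 3.64 to 11.1) lay on its other side, 827.1 kb away and 237.0 kb from A1bg.

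The gap between Mctp2 and Rgma on chromosome 7 held 9 members over 834 kb with higher folds. Rgma encodes a repulsive guidance molecule that also acts as a co-receptor of bone morphogenetic proteins (BMPs). Fold enrichments ran between 5.39 and 12.1 with a median of 10.1, and all backgrounds were near the floor, 0.977 to 1.04. The strongest, 23 fragments over 0.977 (12.1-fold, 7.88 to 18), lay near the middle of the gap in the lncRNA gene Gm36865, 444.6 kb from Mctp2 and 623.8 kb from Rgma. The 5 peaks of at least 10-fold lay between 234.7 kb from Mctp2 and 448.3 kb from Rgma, and the weakest lay 99.5 kb from Rgma. With the 22.8-fold peak on its other side, Mctp2 flanked 10 far peaks.

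Other gaps held their peaks close together. The 6 peaks between the predicted gene Gm5148 and the ankyrin repeat gene Ankrd50 on chromosome 3 lay within 145 kb at the Gm5148 side of a 0.725 Mb gap, with folds of 5.47 to 11.1, and 3 of them were inside the lncRNA gene Gm20755. The 5 between Tnp1 and Tns1 on chromosome 1 lay within 69.2 kb, at 85.7 to 154.9 kb from Tns1, with folds of 5.98 to 15.2. All 5 were inside 2 overlapping lncRNA genes, 6030407O03Rik and Gm29183. Between Nrep and Epb41l4a on chromosome 18, 3 of the 5 peaks lay 158.2 to 159.3 kb from Nrep with folds of 5.55, 11.3 and 7.89. Such closely spaced peaks can share fragments, so they are not independent measurements.

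The gap between Rtl1, a retrotransposon-derived imprinted gene of placenta and muscle, and the thyroid hormone deiodinase gene Dio3 held 5 members. It belongs to the imprinted Dlk1-Dio3 region and also held 42 annotated miRNA genes, 19 snoRNA genes and 11 lncRNA genes. Its strongest peak had 30 fragments over 1.16 (14.3-fold, 9.82 to 20.3) and lay 169.6 kb from Rtl1. A second of 24 fragments over 1.25 (11.1-fold, 7.27 to 16.3) lay 73.8 kb from Rtl1 and 3968 bp from Mir882, whose sequence is given above. The weakest had a background of 2.08 and a fold of 4.22 (2.34 to 7.13). In the same imprinted region, Dlk1, which encodes a membrane protein related to Notch ligands, flanked a peak of 8.60-fold (5.13 to 13.6) at 52.0 kb.

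Between Camk1g, a calmodulin-dependent kinase gene, and Plxna2, a semaphorin receptor gene, 4 of 5 peaks lay on the Camk1g side, 202.3 to 409.5 kb from it, and the strongest was 11.8-fold (7.64 to 17.4). Between the NADPH oxidase gene Nox3 and Arid1b, which encodes a DNA-binding subunit of SWI/SNF, 4 of 5 peaks lay nearer to Arid1b, at 216.0 to 368.0 kb, with folds of 5.56 to 9.80.

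**Figure D4:**
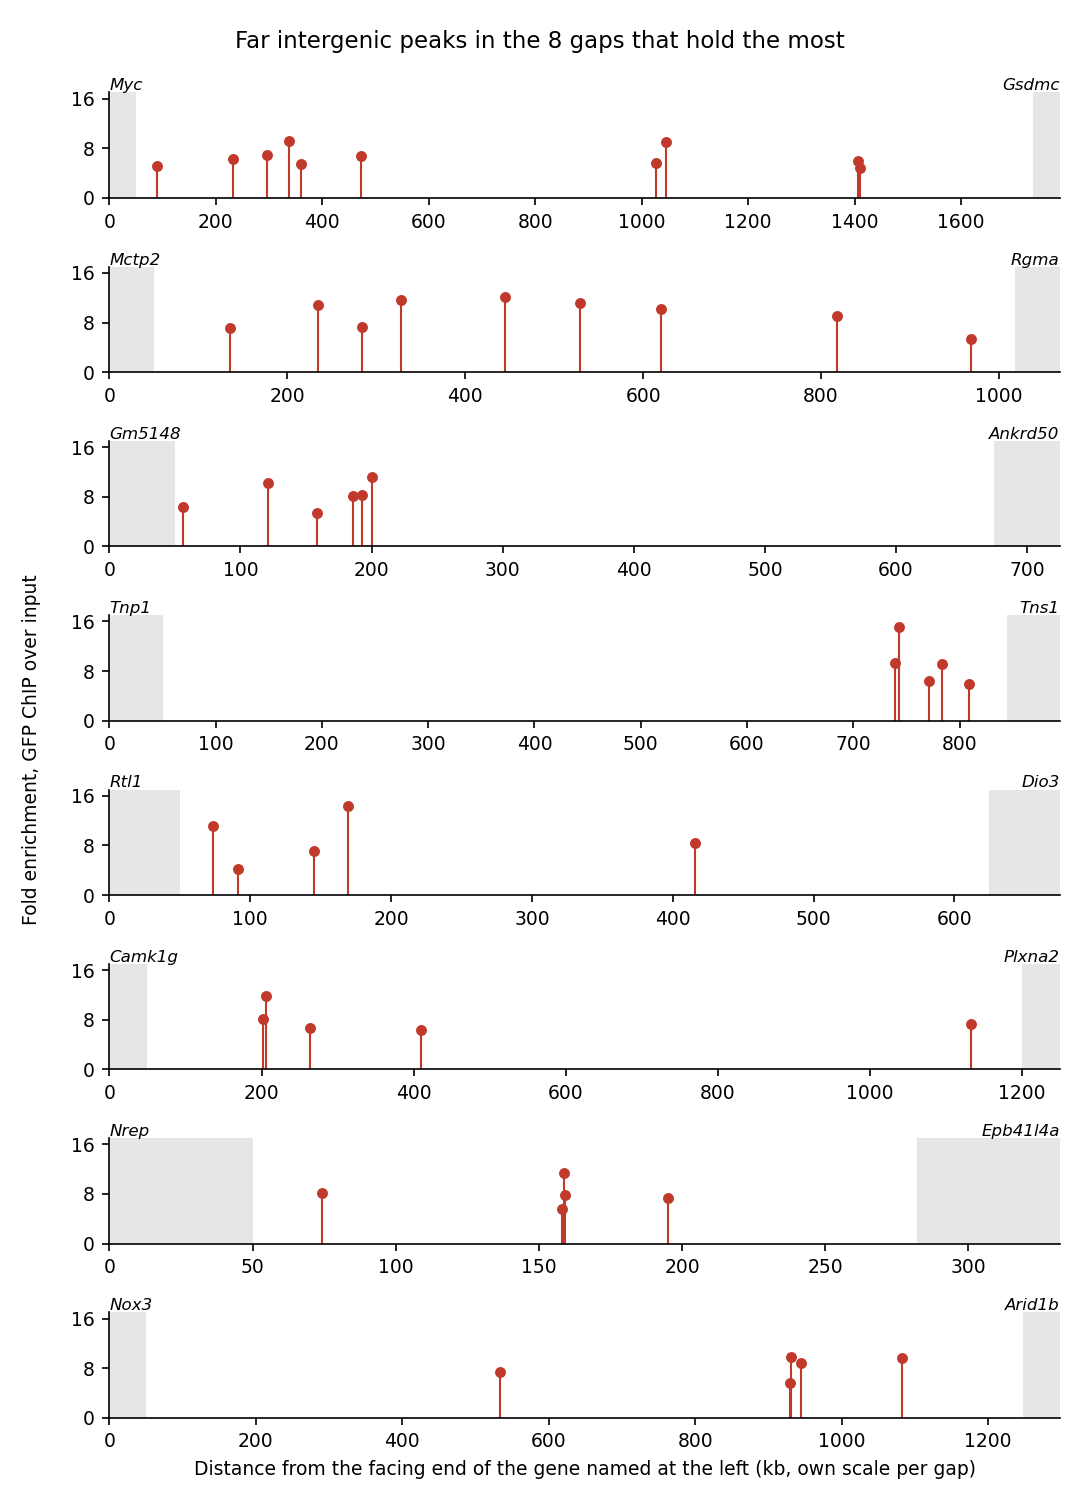
Far peaks in the 8 gaps that hold the most, as stems at their distance (kb) from the facing end of the gene named at the left, with stem height giving fold enrichment. Grey bands mark the 50 kb next to each gene, which the rule leaves out, and each gap has its own distance scale. Peaks spread through the Mctp2 to Rgma gap and crowd together in the Tnp1 to Tns1 gap.

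The far peaks had 534 different flanking genes, 2.6% of the 20558 protein-coding genes of chromosomes 1 to 19. Apart from Rab10 and Samd9l at chromosome ends, genes could flank a member only beside a gap over 100 kb, so the share among those 4070 genes, 13.1%, is the closer yardstick. Of 845 genes of 22 lists on these chromosomes, 103 flanked a far peak, and 171 of the 453 peaks (37.7%) had such a gene as a flank, 20 of them with a background of 2 or more. Among 149 homeobox, paired box and other developmental transcription factor genes, 22 flanked a member, which is 4.12% of the flanking genes, against 2.95% of the 4070 bordering genes and 0.725% of all genes. Of these 149 genes, 120 border a wide gap. These shares do not take gap width into account. Counting gap sequence more than 50 kb from both ends, gaps of the homeobox and paired box list held 0.270 peaks per Mb (0.124 to 0.513). Gaps of the other developmental list held 0.7497 (0.519 to 1.05), and all gaps held 0.540 (0.491 to 0.592). Both list intervals overlapped that of all gaps, so a higher peak density beside these genes was not shown.

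**Figure D5:**
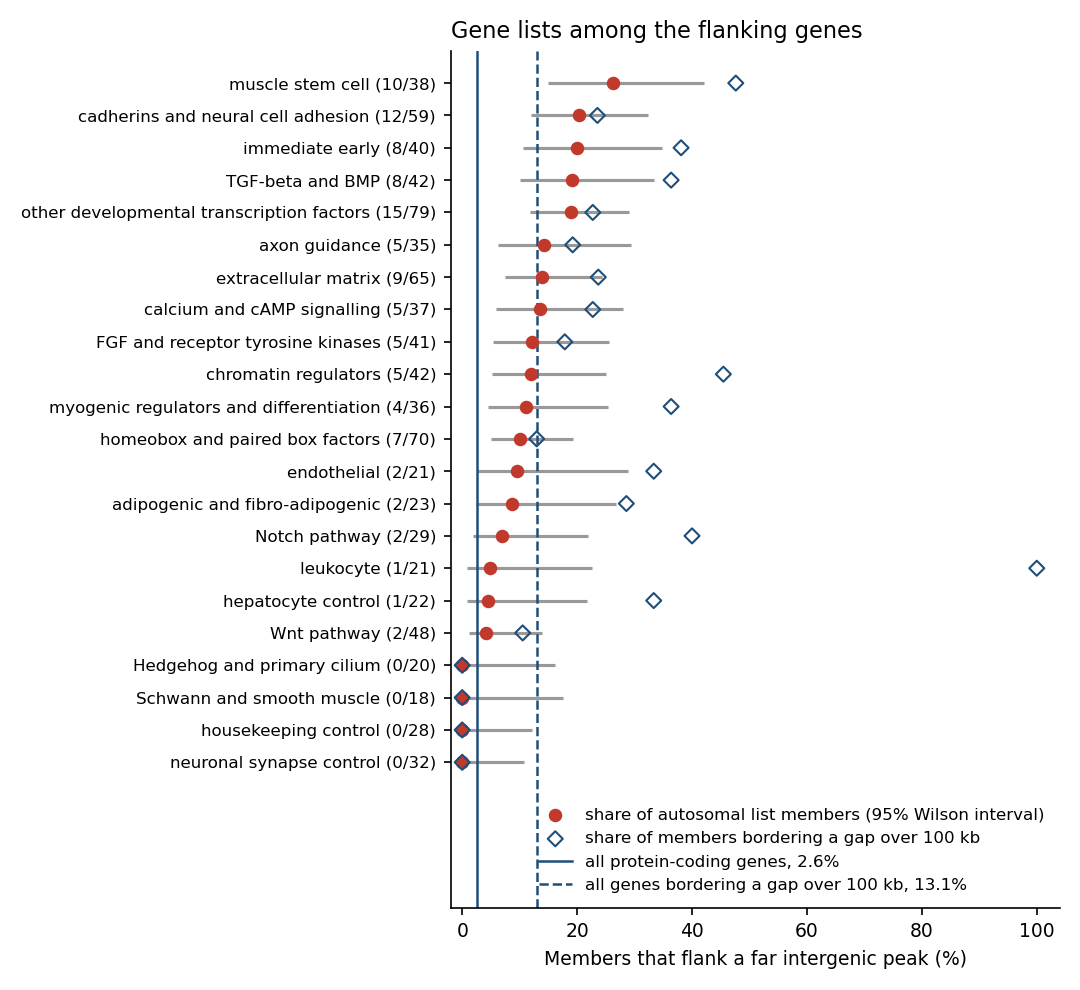
Share of each gene list's members on chromosomes 1 to 19 that flank a far intergenic peak, as filled points with 95% Wilson intervals, to be read against all protein-coding genes (solid line, 2.6%). Open diamonds give the share of the members that border a gap over 100 kb, to be read against all such genes (dashed line, 13.1%). The leukocyte diamond rests on 1 gene. The muscle stem cell list has the highest share of all members, 10 of 38, and 4 lists have none. All lists were chosen with earlier results of these data known.

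The muscle stem cell list, genes known for their expression in quiescent or adult muscle stem cells, had the highest share at the 50 kb limit, 10 of 38 (26.3%, 15 to 42.0%), or 47.6% of its 21 members that border a wide gap. Its interval overlapped those of all other lists except the Wnt, housekeeping and neuronal synapse lists. Like the others, this list was chosen with earlier results of these data known, so its rank is not independent evidence. Cdon led the list with the 19.2-fold peak described above. Dbx1, a homeobox gene, flanked a peak of 26 fragments over 1.04 (13.2-fold, 8.82 to 19.2) at 62.4 kb, with the nearer flank Htatip2 at 59.8 kb. Cxcr4, the chemokine receptor gene of cell homing, flanked 2 peaks of 11.1-fold (7.46 to 16) at 79.1 kb and 9.61-fold (5.90 to 14.9) at 105.0 kb. Vcam1, an adhesion molecule used to sort these cells, flanked 3 peaks, of 8.99-fold, 7.55-fold and 6.94-fold, at 59.9 to 65.2 kb. Named after their values were seen, Gas1, a membrane-anchored Hedgehog co-receptor gene, flanked 4 peaks of 5.55 to 7.72-fold, and Hes1, a Notch target gene, 1 peak of 6.27-fold (3.47 to 10.6) at 328.8 kb. The Hes1 peak lay nearer to Opa1, at 73.4 kb. The peaks between Gas1 and Dapk1 lay nearer to Dapk1, at 173.5 to 191.8 kb. At a limit of 100 kb in place of 50 kb the list had 4 of 38 and no longer the highest share, with adhesion genes at 11 of 59, TGF-beta and BMP genes at 7 of 42 and other developmental transcription factor genes at 13 of 79.

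Immediate early genes, which are induced quickly by stress and growth signals, flanked far peaks in 8 of 40 cases (20%, 10.5 to 34.8%), or 38.1% of the 21 that border a wide gap, and in 4 cases at a limit of 100 kb. Btg1, an antiproliferative gene, flanked 3 peaks of 10.4 to 12.3-fold at 210.7 to 265.5 kb. Its 12.3-fold and 10.6-fold peaks lay nearer to Gm46240, at 53.3 and 67.8 kb. Zfp36l1, which encodes an mRNA decay factor, flanked 4 peaks of 6.58 to 10.6-fold at 105.0 to 202.2 kb. All but the 6.58-fold peak lay nearer to Rad51b, at 57.3 to 102.6 kb. Ccn2, a matricellular growth factor gene, flanked 2 peaks of 10.2-fold (6.47 to 15.3) and 6.58-fold (3.64 to 11.1), and Klf6, a zinc finger factor gene, 2 of 9.80-fold (6.10 to 15) at 321.5 kb and 6.07-fold (3.28 to 10.5) at 1090 kb. Both Ccn2 peaks lay nearer to Moxd1, at 94.5 and 85.6 kb, and the weaker Klf6 peak to Akr1e1, at 162.4 kb. Named after their values were seen, the AP-1 subunit genes Fos and Jun each flanked 1 peak, of 8.09-fold (4.75 to 13.0) at 55.9 kb and 7.72-fold (4.53 to 12.4) at 410.3 kb.

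TGF-beta and BMP genes flanked far peaks in 8 of 42 cases (19%, 9.98 to 33.3%), or 36.4% of the 22 that border a wide gap, with 14 peaks. Among the ligands, Tgfb2 flanked 3 peaks, the strongest with 27 fragments over 1.04 (13.7-fold, 9.21 to 19.7) at 372.4 kb and the others 8.59-fold and 9.49-fold at 140.4 and 93.4 kb. The strongest lay nearer to Lyplal1, at 133.1 kb. Bmp4 flanked an 11.1-fold peak (7.08 to 16.7) at 599.3 kb and a nearer one of 4.13-fold (2.46 to 6.55) at 246.1 kb, whose background was raised to 3.12. Both Bmp4 peaks had a nearer flank, Ddhd1 at 126.1 kb and Cdkn3 at 123.7 kb. Inhbb, which encodes an activin subunit, faced Gli2, the Hedgehog-responsive zinc finger factor gene, across a gap with 3 peaks of 7.08 to 11.1-fold. Of the receptors, the activin receptor gene Acvr2a flanked 2 peaks of 12.1-fold (7.88 to 18) and 8.07-fold at 245.1 and 387.3 kb.

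Of other developmental transcription factor genes, 15 of 79 flanked a member (19%, 11.9 to 29%), or 22.7% of the 66 that border a wide gap. They were led by Sall3, Gata3 and Gli2, whose values are given above, and by Foxa2, a forkhead factor gene of endoderm (9.71-fold, 6.11 to 14.7, at 246.4 kb). The homeobox and paired box list reached 7 of 70 (10%, 4.93 to 19.2%), which is 13.0% of the 54 that border a wide gap and near the share over all such genes. This share depends on list placement, since homeobox genes such as Dbx1, Six2 and Barx2 flanked far peaks but stand in other lists. Zeb2 shared the 2 peaks of Acvr2a, at 3452 and 3309 kb, Lmo4, a LIM domain cofactor gene, flanked a 9.80-fold peak (6.10 to 15) at 275.9 kb, En1 flanked 2 peaks of 8.99-fold and 6.07-fold, and Irx1 flanked 1 of 6.66-fold.

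Myogenic regulators and differentiation genes flanked far peaks in 4 of 36 cases (11.1%, 4.41 to 25.3%), or 36.4% of the 11 that border a wide gap. Only 1 of the 4 was the nearer flank of a far peak. Tcf12 and Tcf4 encode E proteins, the dimer partners of MyoD family factors. Tcf12 flanked 1 peak (8.09-fold, 4.75 to 13.0, at 84.8 kb) and Tcf4 flanked 2, with folds of 7.03 (4.26 to 11) and 3.95, the weaker with a background of 10.4. The Tcf12 peak lay nearer to Zfp280d, at 77.9 kb, and the Tcf4 peaks to Mc2r, at 149.0 and 262.8 kb. Six2, a homeobox gene placed in this list, flanked 3 peaks of 5.47 to 7.84-fold at 116.6 to 193.6 kb, and its cofactor family member Eya4 a 7.08-fold peak (4.01 to 11.8) at 325.2 kb. Six2 was the nearer flank only of its 7.22-fold peak, with the others nearer to Srbd1. The Eya4 peak lay nearer to Rps12, at 109.1 kb.

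Adhesion genes had 12 of 59 members (20.3%, 12 to 32.3%), or 23.5% of the 51 that border a wide gap, and 18 peaks, but their gaps had the most usable sequence of the 22 lists, 116 Mb, counting the part of a gap more than 50 kb from both ends. Per usable Mb these gaps held 0.156 peaks (0.0923 to 0.246), against 0.540 (0.491 to 0.592) over all gaps. Among the 18 peaks, 4 were the high-background ones beside Lrrc4c. Nectin3 flanked 2 peaks of 11.1-fold (7.08 to 16.7) and 7.84-fold, the latrophilin gene Adgrl2 a 10.6-fold peak (6.69 to 16.1), and the cadherin genes Cdh5 and Cdh11 faced each other across 2 peaks of 10.3-fold and 8.60-fold. Intervals wholly above that of all gaps were those of the muscle stem cell list (2.35 peaks per usable Mb, 1.35 to 3.82) and immediate early genes (2.61, 1.52 to 4.19). The same held for chromatin regulators (3.47, 1.89 to 5.81) and TGF-beta and BMP genes (1.35, 0.741 to 2.27). These intervals treat peaks as independent, which closely spaced peaks of a gap are not, so they are too narrow. Density fell with distance from genes, and gap width was not taken into account.

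Chromatin regulators flanked far peaks in 5 of 42 cases (11.9%, 5.19 to 25%), or 45.5% of the 11 that border a wide gap, with 14 peaks. Beside Tet2 and Arid1b, Smarca2 flanked 2 peaks of 10.3-fold and 7.99-fold, the second at the Gm34516 window printed above, and the remodeller gene Chd7 flanked 3, of 9.61-fold, 7.59-fold and 4.74-fold. Calcium and cAMP signalling genes reached 5 of 37 (13.5%, 5.91 to 28.0%), or 22.7% of the 22 that border a wide gap, and 2 of 37 at a limit of 100 kb. Adcy2 came first, then the calcineurin subunit gene Ppp3ca (10.6-fold, 6.69 to 16.1) and the phosphodiesterase genes Pde3a (9.10-fold) and Pde4b (7.08-fold).

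Extracellular matrix genes reached 9 of 65 (13.8%, 7.46 to 24.3%), or 23.7% of the 38 that border a wide gap. The list was led by the thrombospondin gene Thbs1 (11.8-fold, 7.64 to 17.4, at 379.8 kb), the protease gene Adamts20 (11.1-fold, at 533.9 kb), decorin, Dcn (8.09-fold, at 141.3 kb), and the collagen gene Col5a2, which flanked 3 peaks (the strongest 7.56-fold, at 123.7 kb). Axon guidance genes reached 5 of 35 (14.3%, 6.26 to 29.4%), or 19.2% of the 26 that border a wide gap, and 3 of 35 at a limit of 100 kb. They had Plxna2 and the neuropilin gene Nrp2 (8.82-fold, 5.35 to 13.8) first, followed by Sema6a and Efnb2 at 6.37-fold. Genes of FGF and receptor tyrosine kinase signalling reached 5 of 41 (12.2%, 5.32 to 25.5%), or 17.9% of the 28 that border a wide gap, and 2 of 41 at a limit of 100 kb. First was Dusp6, a phosphatase gene of ERK feedback, which flanked 3 peaks (the strongest 11.1-fold, 7.08 to 16.7, at 115.8 kb), followed by Igf1 and Egfr, both 8.09-fold, and Pdgfc (7.08-fold).

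Notch genes had 2 of 29 members, or 40% of the 5 that border a wide gap. They were the ligand gene Jag1 (11.1-fold, 7.13 to 16.5, at 475.4 kb) and the pathway's DNA-binding factor gene Rbpj (6.55-fold, at 178.7 kb). Wnt genes had 2 of 48 (4.17%, 1.15 to 14.0%), or 10.5% of the 19 that border a wide gap. They were the receptor gene Fzd8 (9.10-fold, 5.51 to 14.3, at 315.9 kb) and the feedback gene Axin2, whose only peak was one of high background (84 over 19.2, 4.20-fold). At a limit of 100 kb each of these lists had 1. No Hedgehog and primary cilium gene of 20 flanked a far peak, with a Wilson upper bound of 16.1%. Only 5 of the 20 border a wide gap, so this count of 0 carries little information, and Cdon, Gas1 and Gli2, which also serve Hedgehog signalling but stand in other lists, did flank far peaks.

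Lists of other cell types had few or no genes beside far peaks. Few of their genes border a wide gap, 6 endothelial, 7 adipogenic, 3 hepatocyte and 1 leukocyte gene, and among these the shares were 33.3%, 28.6%, 33.3% and 100%, all above 13.1%. Endothelial genes had 2 of 21 (9.52%, 2.65 to 28.9%), Emcn, which shares its 10.6-fold peak with Ppp3ca, and Cldn5 (6.07-fold), and 0 at a limit of 100 kb. Cdh5, an endothelial cadherin gene, is counted under adhesion. The adipogenic and fibro-adipogenic list had Dlk1 and Cebpb (8.57-fold) of 23, leukocyte genes 1 of 21, Ptprc (9.07-fold), and hepatocyte genes 1 of 22, Apob (4.87-fold at 2224 kb). Schwann and smooth muscle genes had 0 of 18, housekeeping genes 0 of 28 and neuronal synapse genes 0 of 32. Of these synapse genes 21 border wide gaps, with 18.5 usable Mb and no far peak, with a Poisson upper bound of 0.199 peaks per Mb. The housekeeping and Schwann lists had 2 and 3 genes beside a wide gap, so their counts of 0 carry little information. In all, 8 peaks were flanked by genes of 2 lists and are counted under both.

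A summit inside some other annotated gene was found for 106 far peaks (23.4%, 19.7 to 27.5%), where such genes covered 13.9% of the far territory. The host was a lncRNA gene in 103 cases. Of the lncRNA hosts with an established name, Pvt1 held 2 peaks and Mir100hg 1 (6.37-fold, 91.4 kb from Mir100), and the others carried provisional names. The strongest lay in the overlapping genes Gm33742 and Gm38942 between Dhx40 and Ypel2 (15.7-fold). Intergenic peaks 10 to 50 kb from genes were inside such genes about as often, 22.4% (18.4 to 27.0%).

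The share of far peaks varied between chromosomes. Chromosome 18 had 27 of 95 peaks in the class (28.4%) and chromosome 17 had 36 of 146 (24.7%), while chromosome 11 had 11 of 183 (6.01%). Set against territory, chromosome 17 was the densest with 1.31 far peaks per Mb of far territory and chromosome 6 the sparsest with 0.192.

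The farthest member, between the RNA-binding protein gene Celf4 at 1700.1 kb and Pik3c3 at 2811 kb, had 12 fragments over 0.977 (6.58-fold, 3.64 to 11.1). The next, 1143 kb from the teneurin gene Tenm4 and 1844 kb from Gm15501, had a fold of 5.08 (2.81 to 8.58), and the 4 beside Lrrc4c followed. Just inside the limit, peaks near Efcab11, Nfatc1 and Kcna5 lay 51.1 kb from their gene with folds of 8.82, 6.37 and 7.08. Their other flanks were Foxn3 at 77.4 kb, Ctdp1 at 76.3 kb and Ntf3 at 314.6 kb. Just outside the limit, peaks near Prox1, Marchf10 and Ptprz1 lay 49.8, 49.8 and 49.6 kb away with folds of 8.33, 7.81 and 11.9. On the other side of these lay Rps6kc1 at 552.2 kb, Tanc2 at 82.0 kb and Fam3c at 469.6 kb. The smallest −log10 q of a member was 2.60, for a peak of 10 fragments between N6amt1 and Adamts5 (4.30-fold, 2.26 to 7.57), followed by the high-background peak at Rab10 and a 4.22-fold peak near Pkdcc.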

How the data were processed

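GFP ChIP DNA and input DNA from sorted muscle stem cells were read from 1 end over 50 bp, as the labels' protocols state. The submitters' processing notes name bcl2fastq 2.16, HISAT2, MACS2 2.1.1 and the build GRCm38. MACS 2.1.1.20160309 called narrow peaks on 1 ChIP library against 1 input library at a q-value of 0.01, with 172 bp fragments, an effective genome of 1.87e+09 bp and background windows of 1000 and 10000 bp, per the file headers. The input was scaled by 0.5199. The deposited pileup is a coverage signal at the summit. The fold enrichment, deposited as a ratio, is pileup plus 1 over local background plus 1. The caller's −log10 p-values and −log10 q-values were used as deposited.

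The background was recovered from fold and pileup, and counted as at the floor within 0.001. Distances ran from summits to the ends of 20558 protein-coding genes of RefSeq GRCm38.p6, without strand, after 365 genes not on assembled chromosomes were left out. Fold intervals are exact Poisson intervals of the pileup with the background held fixed, shares have Wilson and medians order-statistic intervals, all at 95% (Python 3.11.15, scipy 1.17.1). The position and interval steps were checked on simulated data. Nothing was tested between libraries or resampled over peaks. Named genes flank the 15 strongest or 6 farthest peaks, the 8 fullest gaps, the 3 peaks on either side of the limit or the 3 lowest −log10 q, or are among up to 4 per list. For some peaks of list genes the other flank is named as well. The members, lists and rules were chosen with earlier results of these data known. Sequence inside most peaks was not used here, so motifs were searched in promoter windows only. Alternatives were a limit of 100 kb, genes of every type as boundaries, overlap of the whole peak, only peaks whose −log10 q reached the median, no top 1% by pileup, backgrounds under 2, merged peaks and chromosome X. List counts under them were added after seeing the data.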

Additional observations from a re-analysis of the deposited data

Results flagged for a closer look

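Chromosome X, which the comparisons left out, carried 17 peaks, and 2 of them met the same distance rule. Both lay in the gap between H2al1j and Bcor, a corepressor gene, at 289.1 and 238.7 kb from Bcor, with 20 and 13 ChIP fragments over a background of 0.977 and folds of 10.6 (6.69 to 16.1) and 7.08 (4.01 to 11.8). The 2 peaks on unplaced scaffolds had a fold of 1.57 (119 fragments over 75.4) and of 2.17 (54 over 24.3), values like those of the far peaks beside Lrrc4c and Gm2244.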

How the results depend on the processing

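The 9 results of the main description were recomputed under 8 alternatives. Counting any overlap of the whole peak, leaving out the 1% of highest pileup, keeping backgrounds under 2, merging close peaks and adding chromosome X moved no count by over 1.5 times, and no share or median beyond its counting interval. Keeping backgrounds under 2 left 407 far peaks. A limit of 100 kb left 299 far peaks (10.1% of the list) with a median distance of 201.6 kb, 332 flanking genes, and 64.5% of peaks sharing a gap. With genes of every type as boundaries, 109 far peaks remained (3.68%), at a median of 78.5 kb, with 177 flanking genes, 31.2% sharing a gap, 30.3% at the background floor, and by construction 0% inside another gene. The developmental regulators were then 0% of the flanks, and 143 of the 177 flanking genes were not protein-coding. A −log10 q no lower than the median left 240 peaks with a median fold of 8.82, 344 flanking genes and 45.8% sharing a gap. Of 176 list counts, 39 moved by over 1.5 times, among them those of immediate early genes and of the muscle stem cell list, 4 each at 100 kb. No paired analysis was possible because there was 1 library of each kind. At the median pileup of 15 the Poisson interval of a fold spans more than most differences between members.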
